A study of Saccharomyces cerevisiae with 6 samples.

Results

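The genes described here are 10 genes of thiamine (vitamin B1) synthesis and uptake in budding yeast: the transporter gene THI7, the acid phosphatase gene PHO3, the synthesis genes THI4, THI5, THI6, THI20 and THI21, their relative THI22, the pyrophosphokinase gene THI80 and the activator gene THI2. They were matched to the array's annotation by gene name, locus tag or synonym, from a list drawn up with earlier results of these data known. Of the 10 genes, 9 were measured, each by 1 probe set of its own, among 5449 genes tested with 5498 probe sets. None of the 9 probe sets was of a shared type, whose names end in _s_at or _x_at because their probes match several similar transcripts. No probe set carried the name THI5, and that gene was not analysed here.

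Thiamine is assembled in yeast from a pyrimidine part and a thiazole part that are made separately, joined to thiamine phosphate and converted to thiamine diphosphate, the cofactor of decarboxylases and transketolases. The cell can also take thiamine up from the medium, and the genes of both routes are known to be repressed by thiamine and induced when it runs out, through the activators Thi2 and Pdc2 and the sensor Thi3. Standard yeast nitrogen base is formulated with thiamine, and the labels do not list the vitamins of the medium used in this study.

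The study set 3 arrays of a pun1 deletion strain against 3 arrays of a wild-type strain, both of the filamentous Σ1278b background and both described as diploid, the first with PUN1 deleted on both copies. PUN1 encodes a plasma membrane protein. All 6 cultures were grown at 30 °C in YPD until the OD600 was 0.6 and then spent 6 h in SLAD, a low-nitrogen medium with 2% glucose and with amino acids added where a strain could not make them. Whether the deletion arrays came from 1 clone or several is not given in the labels, and the replicates are described only as biological. Values are log2 signals made by the authors with GCRMA, differences are deletion minus wild type, and a gene is said to have risen or fallen where limma gave a Benjamini-Hochberg adjusted p under 0.05 over all 5498 tested probe sets.

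The targeted gene was checked first. PUN1 read 8.33, 4.83 and 4.93 on deletion replicates 1, 2 and 3, against 13.35, 13.50 and 13.55 on the wild-type arrays. Deletion replicate 1 was the only 1 of the 3 deletion arrays on which PUN1 lay above background. Background was the 95th percentile of 1747 annotated probe sets with no match in the S. cerevisiae gene table. These were taken as probe sets for another yeast, Schizosaccharomyces pombe. The number of chromosome sets was not measured. The markers, which report mating type only, went against an a/alpha diploid on the deletion arrays. All 4 alpha-cell markers (MF(ALPHA)1, MF(ALPHA)2, STE3 and SAG1) and all 4 haploid markers (FUS3, GPA1, STE4 and STE18) were higher there, with array means of the 4 alpha markers at 13.23 to 13.33 on the deletion arrays and at 7.55 to 7.73 on the wild-type arrays. The log2 of the summed alpha marker signal was 15.26 to 15.37 on the deletion arrays and 10.19 to 10.42 on the wild-type arrays. None of the 5 a-cell markers passed the test, and HMRA1, the a1 gene expressed in a/alpha diploids, was above background on 0 of the 3 deletion arrays and on all 3 wild-type arrays. Every difference below was measured between groups that also differ in this way, and the loss of PUN1 and the difference in mating type cannot be told apart. A control probe set for 25S ribosomal RNA set 3 arrays apart across the groups, reading 9.07, 11.28 and 12.53 on deletion replicates 1, 2 and 3, against 12.81, 9.06 and 8.85 on wild type replicates 1, 2 and 3. These are bulk cultures, so fewer cells expressing a gene and less RNA per cell cannot be told apart either.

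Of the 9 measured thiamine genes, 5 rose in the deletion arrays, 0 fell and 4 did not pass the test. Across all tested probe sets 15.8% were called higher and 9.82% lower. The median difference of the 9 genes was 0.25 (log2), against 0.02 over all tested probe sets, and the 9 differences ran from 0.05 to 0.80. All 9 were above 0, where 54.8% of all tested probe sets were. However, THI2 turned to -0.15 under a further quantile normalization. It was also below 0 when deletion replicate 2, deletion replicate 3 or the 3 arrays with a strong 25S rRNA control were left out. The groups did not overlap, with the deletion arrays higher, for 7 of the 9, where 26.7% of all tested probe sets showed this. All 9 genes were above background on every array. With 3 arrays per group, the number of arrays limits the precision of each value.

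**Figure D1:**
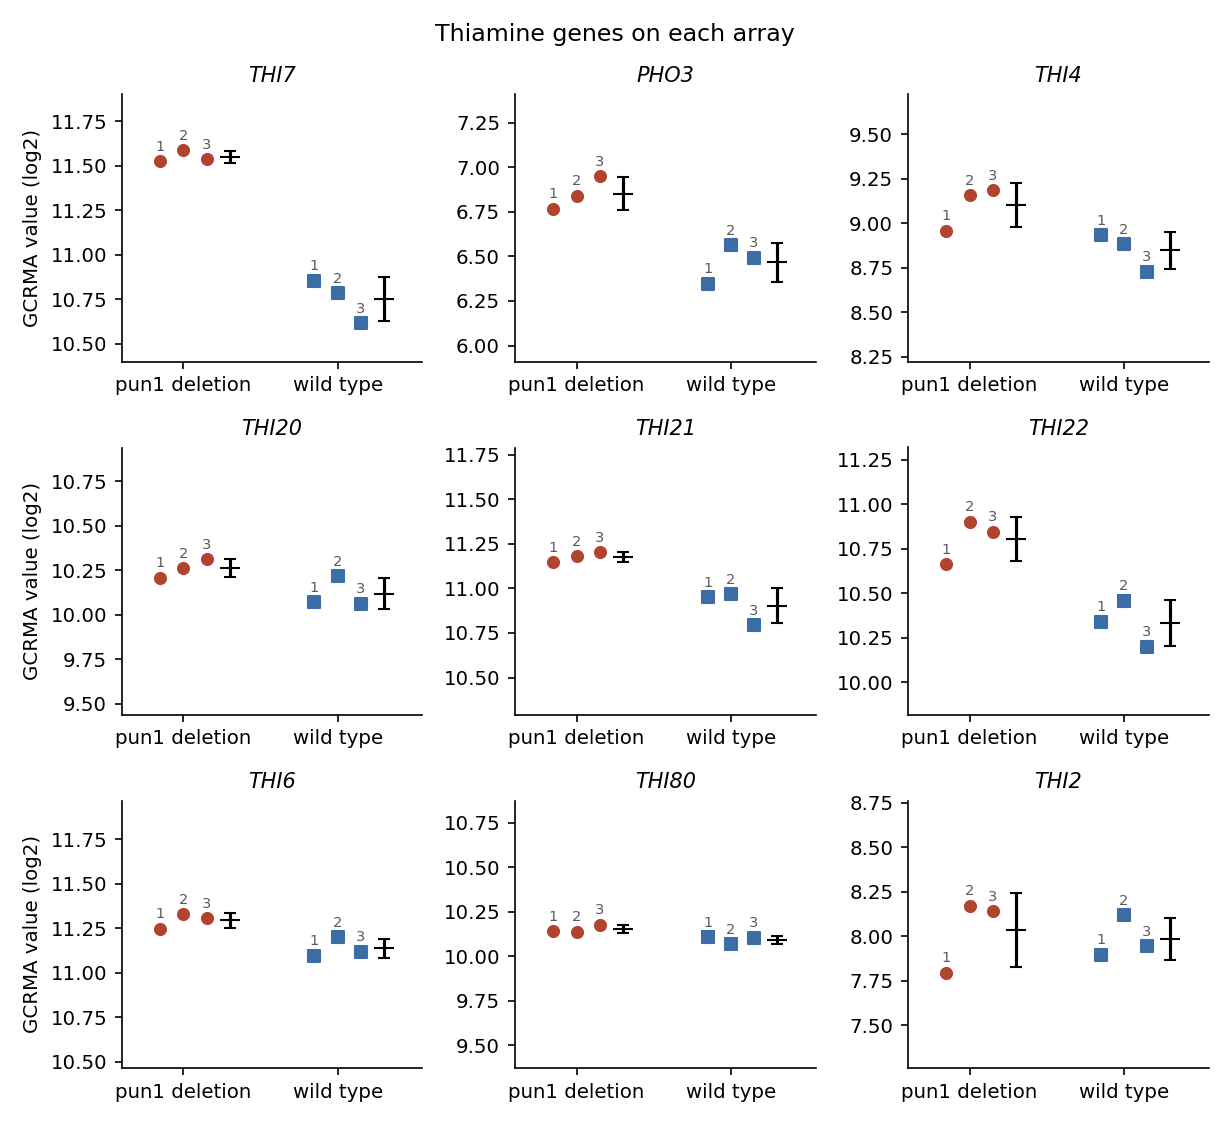
Log2 GCRMA value of the 9 measured thiamine genes on each array (numbers are replicates), with deletion arrays as circles and wild-type arrays as squares, and the mean with SD (n = 3) to the right of each group. Each vertical axis spans the same range of 1.5 log2 units around its gene; the groups lie apart most for THI7 and overlap for THI2 and THI20.

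The largest difference among these genes belonged to uptake from the medium. THI7, which encodes the thiamine transporter of the plasma membrane, read 11.52, 11.59 and 11.54 on deletion replicates 1, 2 and 3, against 10.86, 10.78 and 10.62 on the wild-type arrays. The lowest deletion array exceeded the highest wild-type array by 0.67. By limma, with 3 arrays in each group, THI7 was higher by 0.80 (SE 0.07, adjusted p = 0.000376), a 1.74-fold higher level with a 95% interval of 1.56-fold to 1.94-fold. Only 2.89% of the tested probe sets differed by more in either direction. THI7 passed the test in all 14 alternative fits, with differences of 0.73 to 0.85.

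PHO3 encodes a secreted acid phosphatase that removes phosphate from thiamine phosphates so that thiamine can enter the cell. It read 6.77, 6.84 and 6.95 on the deletion arrays, against 6.35, 6.56 and 6.49 on the wild-type arrays, where background was at 5.71 to 5.75. The groups did not overlap, and all 6 values lay above the background of their arrays. The difference of 0.38 (SE 0.07, adjusted p = 0.00997) corresponds to 1.31-fold. After a further quantile normalization it was 0.12 (adjusted p = 0.116), and after median centring it was 0.35 (adjusted p = 0.0119). When the 3 arrays with a strong 25S rRNA control were left out, it was 0.24 (adjusted p = 0.0935).

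The thiazole part is made by Thi4, a synthase that gives up a sulfur of its own to the product and works once. THI4 read 8.96, 9.16 and 9.18 on the deletion arrays, against 8.93, 8.88 and 8.73 on the wild-type arrays. The groups were separated by only 0.03, between deletion replicate 1 and wild type replicate 1. The difference of 0.25 (95% interval 0.06 to 0.44) did not pass the test (adjusted p = 0.0589). It passed in 2 of 14 alternative fits, without deletion replicate 1 (0.32, adjusted p = 0.0231) and with array weights (0.29, adjusted p = 0.0101).

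In the pyrimidine branch, THI20 and THI21 encode kinases that phosphorylate hydroxymethylpyrimidine, and THI22 encodes a related protein that thiamine synthesis does not need. THI22 had the second largest difference of the 9 genes. It read 10.66, 10.90 and 10.84 on the deletion arrays, against 10.34, 10.46 and 10.20 on the wild-type arrays. The groups did not overlap, and the difference was 0.47 (SE 0.09, adjusted p = 0.00941), or 1.39-fold.

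THI21 read 11.15, 11.18 and 11.20 on the deletion arrays, against 10.95, 10.97 and 10.79 on the wild-type arrays. Its difference was smaller, 0.27 (SE 0.06, adjusted p = 0.0143), again without overlap. The call on THI21 was lost without deletion replicate 2 (adjusted p = 0.0568) or deletion replicate 3 (adjusted p = 0.0556), and without the 3 arrays with a strong 25S rRNA control (adjusted p = 0.120). THI20, whose product also degrades thiamine, read 10.21, 10.26 and 10.31 on the deletion arrays, against 10.07, 10.22 and 10.06 on the wild-type arrays. Here wild type replicate 2 lay just above deletion replicate 1, and the difference of 0.14 (95% interval 0.01 to 0.28) did not pass (adjusted p = 0.109).

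The difference of THI22 exceeded that of THI20 by 0.33 and that of THI21 by 0.20, and the difference of THI21 exceeded that of THI20 by 0.13. Each gave p = 0.1 in an exact two-sided permutation test of the arrays, the smallest value that 3 against 3 arrays allow (0.12 adjusted over 6 pairs of relatives). These 3 genes are similar in sequence, and signal shared between them is uncertain even though each has its own probe set.

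Thi6 joins the thiazole and pyrimidine parts, and Thi80 transfers a pyrophosphate group to thiamine to give thiamine diphosphate. THI6 read 11.25, 11.33 and 11.31 on the deletion arrays, against 11.09, 11.20 and 11.12 on the wild-type arrays. The groups were separated by 0.05, and the difference of 0.16 (SE 0.05, adjusted p = 0.0470) lay close to the threshold. The call was lost in 9 of 14 alternative fits (adjusted p = 0.0508 to 0.522), among them each fit that left out 1 array, except the one without deletion replicate 1.

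THI80 read 10.14, 10.14 and 10.18 on the deletion arrays, against 10.11, 10.07 and 10.10 on the wild-type arrays. Its groups did not overlap, but the difference was only 0.06 (95% interval -0.03 to 0.15, adjusted p = 0.277). This interval limits a change of THI80 to between 0.981-fold and 1.11-fold.

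THI2, the zinc-cluster activator of the pathway, read 7.80, 8.17 and 8.14 on the deletion arrays, against 7.90, 8.12 and 7.94 on the wild-type arrays. The groups overlapped fully, with deletion replicate 1 the lowest of the 6 arrays, and the difference was 0.05 (95% interval -0.21 to 0.32, adjusted p = 0.781). THI2 had the widest spread among the deletion arrays of the 9 genes (SD 0.21), and THI80 the narrowest (SD 0.02).

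**Figure D2:**
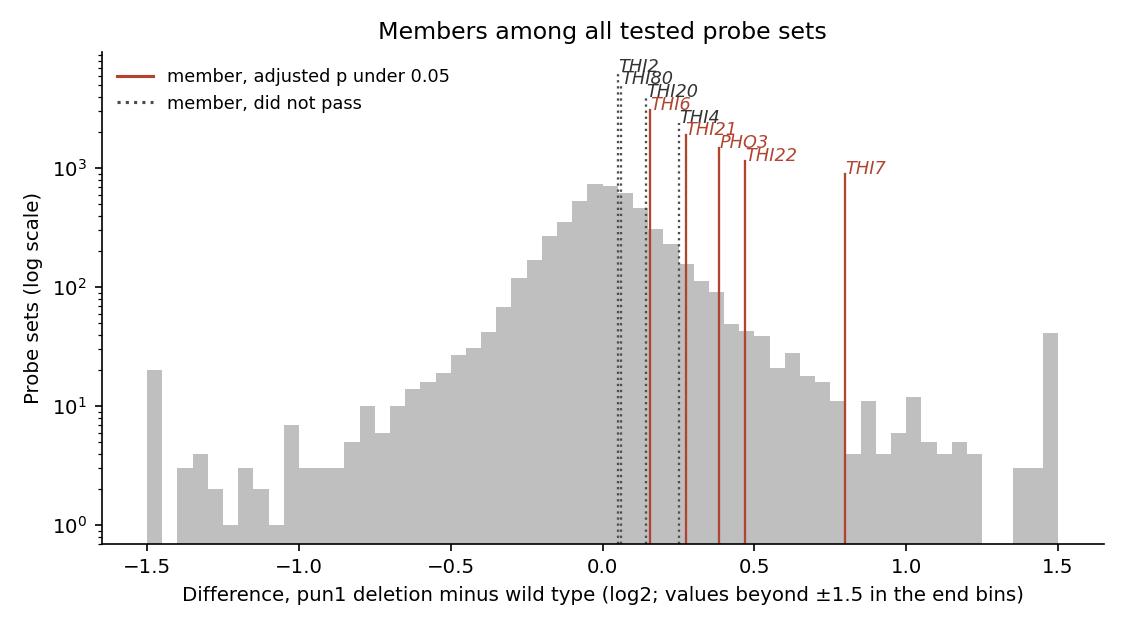
Histogram of the limma difference (deletion minus wild type, log2) over the 5498 tested probe sets on a logarithmic count axis, with a vertical line for each of the 9 thiamine genes. THI7 lies farthest out at 0.80 and THI2 and THI80 lie near 0.

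The regulators and relatives outside the 10 genes were taken as a list of 11, of which 9 were measured. Of these, 2 rose, 0 fell and 7 did not pass, with a median of 0.17, where 15.8% of all tested probe sets were called higher and 9.82% lower. NRT1, a transporter of nicotinamide riboside that is related to Thi7, read 10.13, 10.08 and 10.15 on the deletion arrays, against 9.41, 9.38 and 9.40 on the wild-type arrays. The spread within each group was small beside the gap of 0.67 between them, and the difference was 0.72 (SE 0.04, adjusted p = 5.05e-05). NRT1 passed in all 14 alternative fits.

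THI72, the other relative of THI7, read 8.97, 8.96 and 8.93 on the deletion arrays, against 8.96, 8.94 and 9.00 on the wild-type arrays. Its difference was -0.01 (95% interval -0.10 to 0.08, adjusted p = 0.866). The difference of THI7 exceeded that of THI72 by 0.81, and that of NRT1 exceeded it by 0.73 (exact two-sided permutation p = 0.1 for each, the smallest possible, and 0.12 adjusted over 6 pairs). THI7 and NRT1 differed from each other by 0.08 in their differences (exact permutation p = 0.6, also 0.6 adjusted).

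THI13 belongs to a family of near-identical genes with THI5, THI11 and THI12 that make the pyrimidine part. Its probe set is a shared one, so the copy behind the signal is uncertain. It read 9.71, 9.83 and 9.92 on the deletion arrays, against 9.62, 9.60 and 9.45 on the wild-type arrays. The groups lay 0.09 apart, and the difference was 0.26 (SE 0.07, adjusted p = 0.0376), a call lost in 7 of 14 alternative fits. These were the fit with the replicate number as a block (adjusted p = 0.0660), the fits that left out replicate 2 or 3 of either strain, the fit over all probe sets and the fit that left out the 3 arrays with a strong 25S rRNA control.

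Neither partner of Thi2 passed: THI3, the thiamine diphosphate sensor, differed by 0.11 (adjusted p = 0.0922) and PDC2, an activator, by 0.03 (adjusted p = 0.785). TPC1, the mitochondrial carrier of thiamine diphosphate, differed by 0.20 (adjusted p = 0.0639) and passed in 2 of 14 alternative fits, without wild type replicate 1 (0.25, adjusted p = 0.0323) and with array weights (0.21, adjusted p = 0.0185). The putative transporter genes THI73 and THI74 differed by 0.17 and 0.23, and PET18 differed by -0.15, with adjusted p-values of 0.147, 0.120 and 0.143.

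By Pearson correlation over the 6 arrays, the 5 genes most like THI4 among 3017 candidates were AIM24 (r = 0.996), PRP40 (0.988), THI13 (0.985), FUN14 (0.985) and TRX3 (0.983). Candidates were probe sets above background with a range at least 0.5 times that of THI4. THI13 was the 1 of these 5 that rose, and it was also the only one on the thiamine lists. All these points come from the same 6 arrays and 2 groups.

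The pyrimidine part is built from vitamin B6, and 6 of the 8 listed genes of vitamin B6 synthesis were measured. Of these 1 rose, 0 fell and 5 did not pass, with a median difference of 0.01, and 1 in 6 is close to the 15.8% called higher over all tested probe sets. BUD16, a putative pyridoxal kinase, rose by 0.14 (SE 0.04, adjusted p = 0.0321), a call lost in 10 of 14 alternative fits (adjusted p = 0.0535 to 0.330), among them each fit without 1 array other than deletion replicate 1. SNZ1, a subunit of the vitamin B6 synthase, differed by 0.09 (adjusted p = 0.243) and the oxidase gene PDX3 by -0.04 (adjusted p = 0.530). SNZ3 and SNO3, whose probe sets are shared ones, were above background on 0 of 6 arrays, and SNO1 on 1, deletion replicate 3. Differences of these 3 rest on values at background and are not drawn in the plot of differences.

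**Figure D3:**
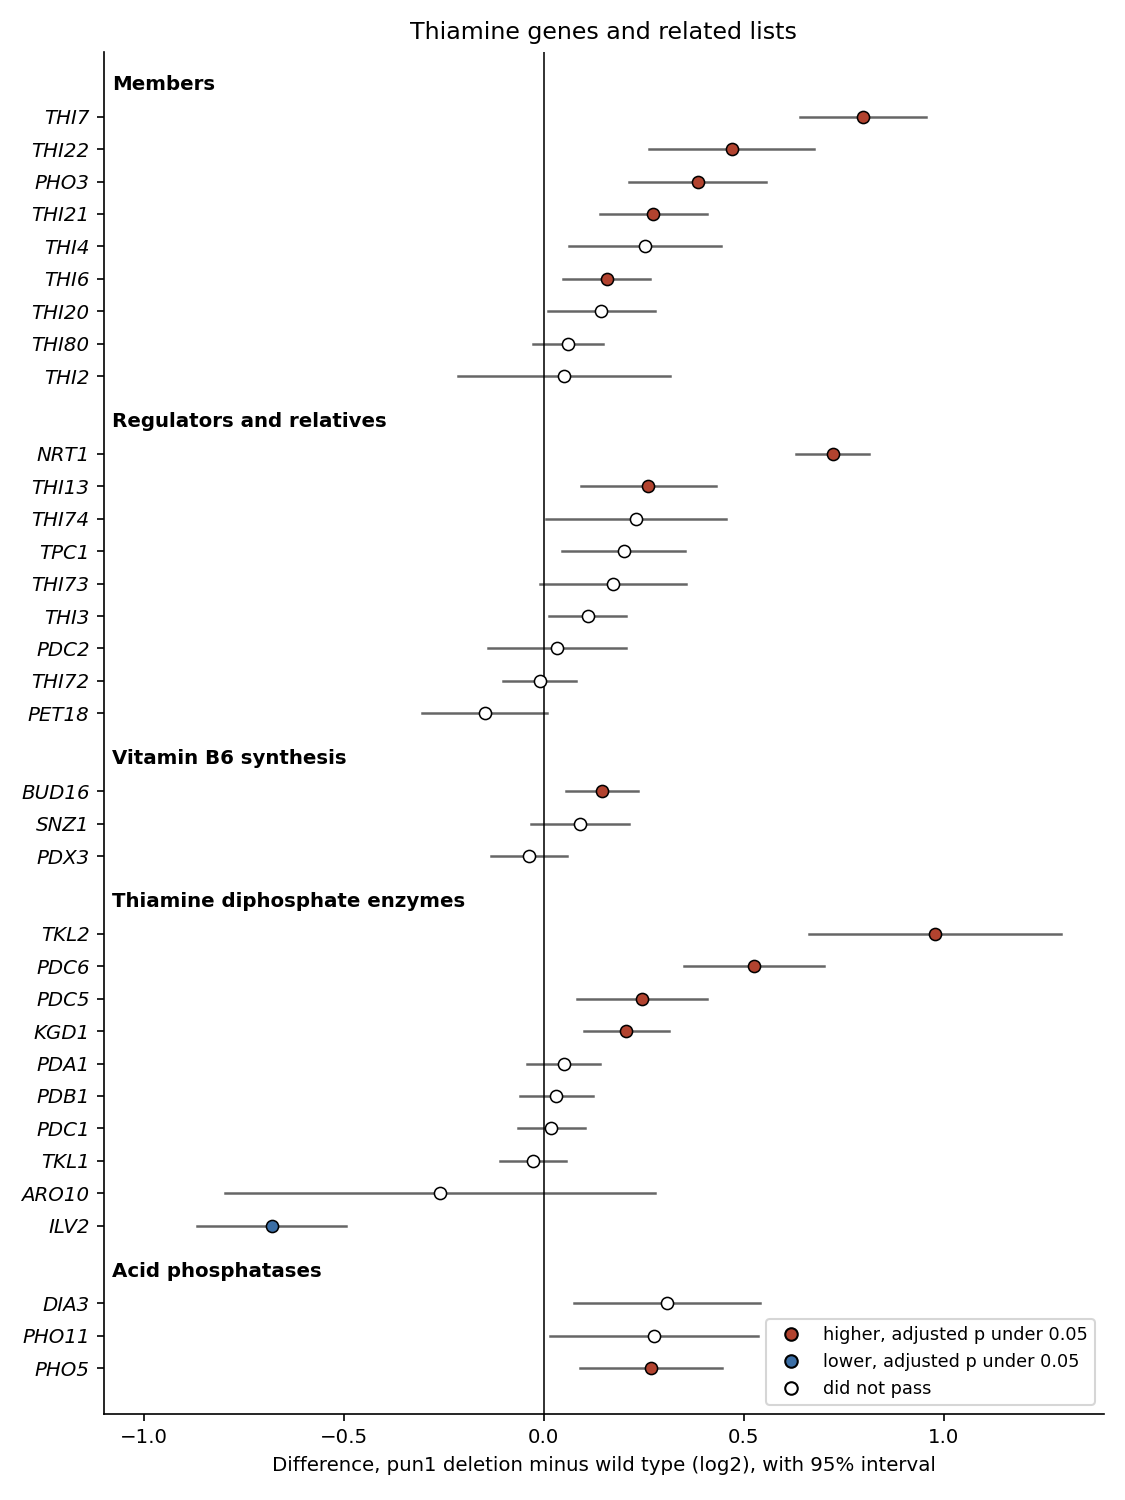
Limma difference (deletion minus wild type, log2) with its 95% interval for each measured thiamine gene and each gene of the 4 related lists that was above background on 2 arrays or more; filled points passed the test. THI7 (0.80) and NRT1 (0.72) have the largest differences of the thiamine genes and their relatives, and TKL2 (0.98) and ILV2 (-0.68) are the extremes of the enzymes that use thiamine diphosphate.

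Among the enzymes that use thiamine diphosphate, 10 were listed and measured. Of these, 4 rose, 1 fell and 5 did not pass, with a median of 0.04, against 15.8% higher and 9.82% lower over all tested probe sets. The 1 in 10 that fell is close to the share over all probe sets. TKL2, the minor transketolase, read 9.12, 9.20 and 9.39 on the deletion arrays, against 8.49, 8.28 and 8.00 on the wild-type arrays. The groups lay 0.62 apart, and the difference was 0.98 (SE 0.13, adjusted p = 0.00285). TKL1, the major transketolase, differed by -0.03 (95% interval -0.11 to 0.06, adjusted p = 0.607).

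Among the pyruvate decarboxylases, PDC6 read 9.20, 9.45 and 9.31 on the deletion arrays, against 8.84, 8.71 and 8.83 on the wild-type arrays, and rose by 0.52 (SE 0.07, adjusted p = 0.00321). PDC5 rose by 0.24 (adjusted p = 0.0406), a call lost in 9 of 14 alternative fits (adjusted p = 0.0578 to 0.116), among them each fit without 1 array other than deletion replicate 3. PDC1, the main isozyme, differed by 0.02 (adjusted p = 0.744). KGD1, the first component of 2-oxoglutarate dehydrogenase, rose by 0.21 (SE 0.04, adjusted p = 0.0167), a call lost in 4 of 14 alternative fits. These were the fits without wild type replicate 3 (adjusted p = 0.0522), without deletion replicate 2 (adjusted p = 0.0726), over all probe sets (adjusted p = 0.0560) and without the 3 arrays with a strong 25S rRNA control (adjusted p = 0.151). The pyruvate dehydrogenase genes PDA1 and PDB1 differed by 0.05 and 0.03 and did not pass.

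ILV2, the acetolactate synthase of branched-chain amino acid synthesis, was the 1 gene of these lists that fell. It read 12.67, 12.70 and 12.76 on the deletion arrays, against 13.22, 13.47 and 13.49 on the wild-type arrays, a difference of -0.68 (SE 0.08, adjusted p = 0.00148). The groups were 0.46 apart. ARO10, a decarboxylase of the pathway to fusel alcohols, differed by -0.26 with a wide interval (-0.80 to 0.28, adjusted p = 0.438). Its wild-type arrays ran from 9.70 on replicate 1 to 10.49 on replicate 3, and it passed as lower in 2 of 14 alternative fits, without wild type replicate 1 (-0.51, adjusted p = 0.0400) and without the 3 arrays with a strong 25S rRNA control (-0.77, adjusted p = 0.00162), which include wild type replicate 1.

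Of the 3 measured acid phosphatases related to PHO3, 1 rose and 2 did not pass, with a median of 0.28, where 15.8% of all tested probe sets were called higher. PHO5, the phosphate-repressed enzyme, read 8.96, 9.09 and 9.00 on the deletion arrays, against 8.61, 8.88 and 8.75 on the wild-type arrays, and rose by 0.27 (SE 0.07, adjusted p = 0.0401). That call was lost in 9 of 14 alternative fits (adjusted p = 0.0544 to 0.325), among them each fit without 1 array other than wild type replicate 2. PHO11, measured by a shared probe set, and DIA3 differed by 0.28 and 0.31 and did not pass (adjusted p = 0.111 and 0.0597). Each passed in 3 of 14 alternative fits, PHO11 among them without deletion replicate 1 (adjusted p = 0.0268) and with array weights (adjusted p = 0.0229), and DIA3 without wild type replicate 2 (adjusted p = 0.00978) and with an intensity trend (adjusted p = 0.0433). With the replicate number as a block all 3 of the measured relatives passed, and after a further quantile normalization 0 of the 3 did. PHO3 and PHO5 are close copies that lie next to each other in the genome, and signal shared between them is uncertain.

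Leaving out the 3 arrays with a strong 25S rRNA control left 1 call among the 9 thiamine genes. In that fit, which keeps 1 deletion array and 2 wild-type arrays, THI7 stayed higher by 0.82 (adjusted p = 0.00265). The lone deletion array, replicate 1, is assumed to vary like the wild-type arrays, and it is the one on which PUN1 lay above background (8.33). THI22 then differed by 0.33 (adjusted p = 0.112), THI21 by 0.27 (adjusted p = 0.120) and THI6 by 0.09 (adjusted p = 0.522). Of the other genes, NRT1, TKL2, PDC6 and ILV2 passed in that fit and in the other 13 alternative fits.

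**Figure D4:**
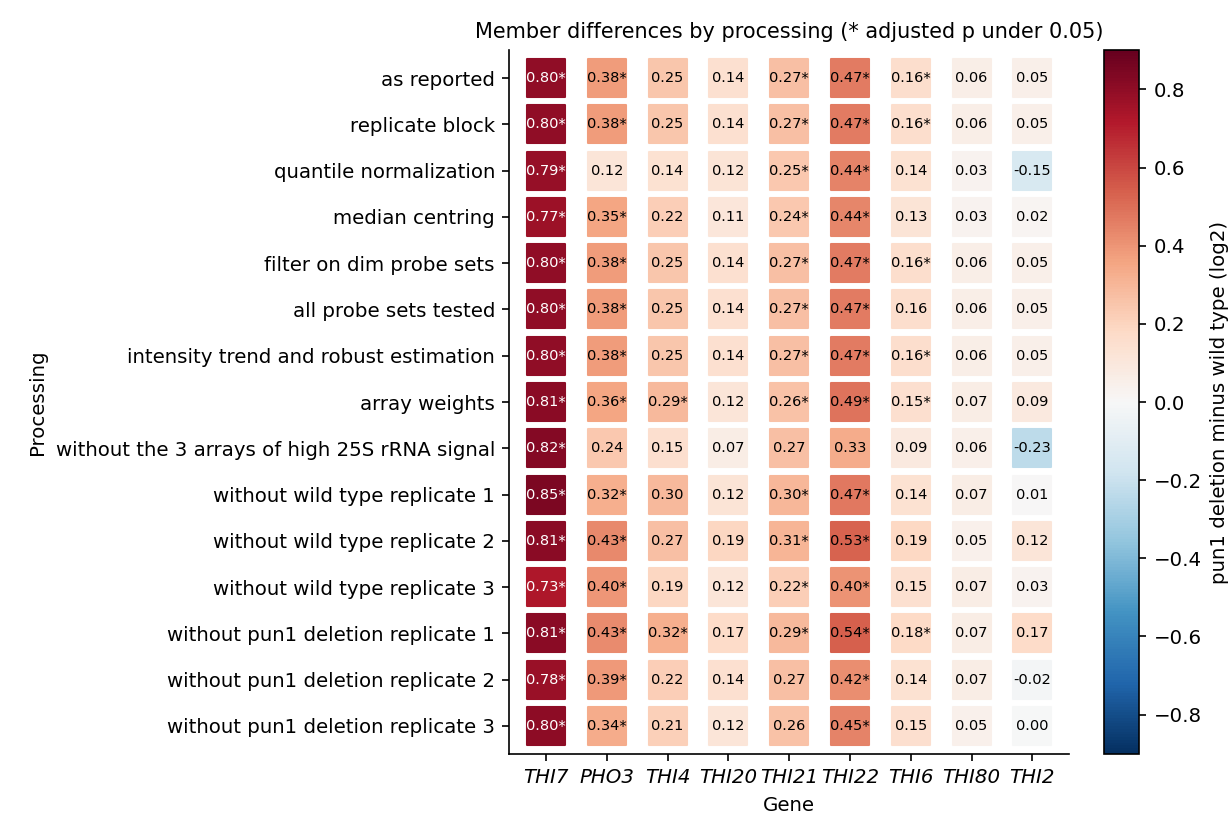
Limma difference (deletion minus wild type, log2) of each measured thiamine gene as reported and under 14 alternative fits, with an asterisk where the adjusted p was under 0.05. THI7 keeps its asterisk in every fit and THI22 in all but the one that left out the 3 arrays with a strong 25S rRNA control, while THI80, THI20 and THI2 have none.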

How the data were processed

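Messenger RNA of 6 yeast cultures was hybridised to 6 one-colour arrays. The deposited values are log2 probe set signals that the authors made with GCRMA, per the submitters' processing notes, which also list GCOS 1.1 and limma. The range of the values fits a base of 2, which no source states, and no source used here names a genome build. The platform table gave exactly 1 symbol to 7244 of 10928 probe sets, several to 1 and no symbol to 3683; entries were matched to the RefSeq gene table by gene identifier, which left 5498 probe sets of S. cerevisiae. Differences, deletion minus wild type, were tested two-sided by lmFit and eBayes without covariates (limma 3.58.1, R 4.3.3), which gives every adjusted p. Figures were drawn with matplotlib 3.10.9.

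The members, lists and tests were chosen with earlier results of these data known. The genes named are the 10 members, PUN1, the mating-type markers, every measured gene of the 4 related lists and the 5 genes most like THI4. Promoters and proteins were not used here, so no sequence is printed. Replicate numbers are shared by the groups: deviations of same-numbered arrays from their group means correlated at 0.351, 0.213 and 0.112 across probe sets, all over 0.1, the limit set for treating the numbers as pairs. Differently numbered arrays correlated at -0.283 to 0.183, and wild type 2 with deletion 3 (0.183) and wild type 3 with deletion 2 (0.161) exceeded the third pair. Both values also exceed 0.1, so that limit did not single out same-numbered arrays. No label states a shared day, and the reported fits did not treat the numbers as pairs. With the replicate block in limma, the calls on THI13 (adjusted p = 0.0660) and BUD16 (adjusted p = 0.0535) were lost. PHO11 (adjusted p = 0.0103) and DIA3 (adjusted p = 0.0181) then passed as higher. The 14 alternative fits were a replicate block, 2 further scalings, a filter on dim probe sets, all probe sets, an intensity trend, array weights, 3 arrays left out together and each array left out in turn. P-values set each difference against the spread between these cultures, with the variance moderated over all tested probe sets. Whether that spread covers separately made deletion clones is not known.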

Additional observations from a re-analysis of the deposited data

How the results depend on the processing

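THI7 passed in all 14 alternative fits, THI22 in 13, PHO3 in 12, THI21 in 11 and THI6 in 5, and no member was called lower in any of them (limma, adjusted p under 0.05). As reported, 5 members rose and 0 fell. The count of members that rose was 3 after quantile normalization, 1 when the 3 arrays with a strong 25S rRNA control were left out and 3 to 6 when single arrays were left out, 3 without deletion replicate 2 and 3 without deletion replicate 3. Those fits left fewer arrays, and for the scalings the cause was not tested. Over all tested probe sets 868 were higher and 540 lower as reported, against 700 and 760 after quantile normalization, 702 and 711 after median centring, 447 and 373 without the 3 arrays, 1224 and 892 with array weights, 507 and 284 without deletion replicate 2 and 535 and 325 without deletion replicate 3; the median difference stayed within -0.01 to 0.02 in all fits.

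Among the regulators and relatives, 2 rose as reported, and 1 rose with the replicate block, with all probe sets, and without the 3 arrays; 1 fell after quantile normalization and with array weights (PET18); leaving out single arrays gave 1 to 3 higher. For vitamin B6 synthesis the 1 gene that rose became 0 with the replicate block, quantile normalization, median centring, all probe sets and without the 3 arrays, where 1 (SNO1) fell; single arrays gave 0 to 1. Of the enzymes that use thiamine diphosphate, 4 rose and 1 fell as reported, against 2 higher with all probe sets, 2 higher and 2 lower without the 3 arrays, and 2 to 4 higher and 1 to 2 lower without single arrays. Of the acid phosphatases, 1 rose as reported, 3 with the replicate block, 2 with the intensity trend and with array weights, 0 after either scaling, with all probe sets and without the 3 arrays, and 0 to 2 without single arrays. The replicate block changed no call on a member.

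The sign turned for genes that had not passed. After quantile normalization the differences were -0.15 for THI2, -0.012 for THI73, -0.18 for SNZ3 and -0.19 for SNO1. After median centring they were -0.03 for SNZ3, -0.0078 for SNO1, -0.013 for PDC1 and -0.0003 for PDB1. With array weights they were -0.0095 for PDC2, -0.0054 for SNO1 and 0.088 for SNO3. Without the 3 arrays they were -0.23 for THI2, 0.0058 for THI72, -0.029 for SNZ3, -0.31 for SNO1 (adjusted p = 0.0451, not above background on 5 of 6 arrays) and -0.019 for PHO11. Without single arrays the ranges were -0.017 to 0.17 for THI2, -0.035 to 0.091 for PDC2, -0.026 to 0.0062 for THI72, -0.081 to 0.091 for SNZ3, -0.15 to 0.16 for SNO1 and -0.10 to 0.070 for SNO3. SNZ3, SNO3 and SNO1 gave no value under the filter on dim probe sets.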

Other observations

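Deletion replicate 1 read lowest of the 3 deletion arrays for 8 of the 9 thiamine genes, against 44.2% of all tested probe sets. It was also the deletion array with the lowest 25S rRNA control, at 9.07. Wild type replicate 3 read lowest of its group for 5 of the 9, against 36.1% of all tested probe sets, and highest for 0. Pairing arrays by replicate number, 26 of 27 differences of the 9 genes were above 0, the exception being THI2 in replicate 1 at -0.10. These 27 differences come from the same arrays for every gene and are not separate observations. They largely restate the group differences, which were above 0 for all 9 genes and for 54.8% of all tested probe sets. The share of paired differences above 0 over all tested probe sets was not computed, and no label states that same-numbered arrays belong together.

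The protein-coding genes that flank the 9 thiamine genes in the RefSeq gene order were looked at after the values were seen. Of 14 that were measured, 2 rose, 1 fell and 11 did not pass, with a median difference of 0.04. The shares over all tested probe sets, 15.8% higher and 9.82% lower, are close to these counts. AXL1, a gene of the axial budding pattern of haploid cells, lies beside THI22 and differed by 2.03 (limma, adjusted p = 6.58e-06). The others that passed were PHO5 and TIM12, both beside PHO3, the second at -0.19 (adjusted p = 0.0489).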
